A study of Triticum aestivum with 8 samples.

Results

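Accessible chromatin regions (ACRs) of wheat whole seed were compared with those of wheat endosperm, after the lists of each tissue had been joined. The whole seed set was the union of the ACR lists at DAP15 and DAP20 and the endosperm set the union of the lists at DAP5 and DAP9, where DAP is days after pollination. ACRs that overlapped by at least 1 bp were merged, first within a tissue and then between tissues, and a merged stretch is called a locus. Chromosome 4B was left out. The comparison thus rested on 172945 loci on 20 chromosomes, of 180461 loci in the whole series, and the 7516 loci of chromosome 4B are the difference.

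All samples were grain of the bread wheat (Triticum aestivum) cultivar AK58, a single genotype, assayed by ATAC-seq in 8 sample records, 2 for each of 4 stages. Whole seed was taken at DAP15 and DAP20, and no removal of the embryo was mentioned for it. Endosperm was taken at DAP5 and DAP9 by removing the embryo, and the removal of other parts was not mentioned. Tissue and age therefore changed together and cannot be told apart: no whole seed was listed at the early stages and no endosperm at the late ones. Each stage came with 1 list of coordinates and none per replicate, without a score or a read number, so that replicate error was unknown for every difference and none was tested. Intervals below are 95% intervals (Wilson for a share, Newcombe for a difference of shares). They cover counting error alone and are too narrow to the extent that ACRs close to each other open together. For the main comparisons it is also given on how many of the 20 chromosomes a direction was seen, although chromosomes are no replicates of a tissue.

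In ATAC-seq, the Tn5 transposase cuts and tags DNA that is not wrapped in nucleosomes, and promoters, enhancers and other regulatory elements in use are typically found in such DNA. The endosperm is the storage tissue of the cereal grain. It first divides its nuclei and forms cells, then fills with starch and with the gluten proteins, the gliadins and glutenins. A whole seed holds this tissue as well as the embryo and the maternal seed coats. Both samples were mixtures of cell types, and a locus open in fewer cells cannot be told apart from a locus less open in every cell. Bread wheat carries the related A, B and D subgenomes, and its genes lie mostly towards the ends of the chromosomes. The genome build behind the coordinates was not stated and no annotation of it was used, so the labelled tissues could not be checked against marker genes and no gene is named.

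The lists themselves differed in ACR width, more than in number. Without chromosome 4B, the DAP5 list held 104538 ACRs (mean width 756 bp), the DAP9 list 97407 (785 bp), the DAP15 list 102128 (665 bp) and the DAP20 list 100068 (541 bp). The DAP20 list stood apart. Most widths in all lists were 350 bp or 350 bp plus a multiple of 150 bp, but 39.6% of the DAP20 widths fell off these steps, against 18.2% at DAP5, 1.93% at DAP9 and 4.33% at DAP15. ACRs under 350 bp were 18.8% of the ACRs in DAP20, 4.56% in DAP5, 0.394% in DAP9 and absent from DAP15. For the main measures, values with DAP15 as the only whole seed list are therefore given beside those of the union.

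The whole seed union had more ACRs than the endosperm union, but they were narrower and covered less of the genome. The whole seed union held 137068 ACRs and the endosperm union 124970, a ratio of 1.10. The lists that went into them summed to nearly equal numbers, 202196 ACRs for whole seed and 201945 for endosperm, and the DAP5 list was longer than either whole seed list. The larger whole seed union thus came with a smaller overlap of its lists, of which 44.0% of the merged ACRs were in both, against 57.7% in endosperm. The whole seed union covered 89.4 Mb and the endosperm union 102 Mb, a ratio of 0.875. These were 0.668% and 0.763% of the summed chromosome length, for which the largest end coordinate of any list was used. In the unions, both directions held on every chromosome used: whole seed had more ACRs on 20 of 20 and fewer covered bases on 20 of 20. The ratio of covered bases, whole seed over endosperm, was lowest on chromosome 1A (0.834) and highest on 7B (0.949). The mean width was 652 bp in the whole seed union and 818 bp in the endosperm union, with medians of 500 and 650 bp. With DAP15 as the only whole seed list, the ratio of covered bases was 0.860 against DAP5 and 0.889 against DAP9, so the direction did not rest on the narrow DAP20 ACRs.

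Fewer than 1 in 2 of the bases open in either tissue were open in both. Of the 135.7 Mb, 55.9 Mb (41.2%) lay in both unions, 33.5 Mb (24.7%) in whole seed only and 46.3 Mb (34.1%) in endosperm only. Of the whole seed bases 62.5% were also open in endosperm, and of the endosperm bases 54.7% were also open in whole seed. Where the unshared bases lay differed between the tissues. In whole seed, 67.1% of the unshared bases were in loci that endosperm lacked and 32.9% lay within loci that both tissues held. In endosperm, 54.0% were in loci that whole seed lacked and 45.98% lay within loci held by both. Between DAP15 and the endosperm lists, the shared bases were 35.2% (DAP5) and 40.9% (DAP9) of those open in either list. Within a tissue they were 36.5% for the 2 whole seed lists and 52.1% for the 2 endosperm lists. A low share of bases was thus not particular to the comparison between tissues.

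The loci held by both tissues accordingly tended to be wider in endosperm. The width of a locus in a tissue was taken here as the bases covered by the ACRs of that tissue within it, summed over several ACRs where present. The median width of the loci of both tissues was 650 bp in whole seed and 782 bp in endosperm, and their mean width was 836 and 964 bp. Of these loci 35.3% were wider in whole seed, 56.7% were wider in endosperm and 8.01% were equally wide. A width at least 2 times that in the other tissue was found at 2882 loci (3.601%) for whole seed and at 8790 loci (10.98%) for endosperm. The median log2 ratio of whole seed over endosperm width was -0.10, a small shift against these tails. Loci shared by DAP15 and 1 endosperm list showed the same direction, with 36.2% wider in DAP15 and 45.1% wider in DAP5, and with 29.1% wider in DAP15 and 47.2% wider in DAP9.

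Counted as loci, more were held by whole seed only than by endosperm only. Whole seed only loci numbered 49890, which was 28.8% of all loci (interval 28.6 to 29.1). Endosperm only loci numbered 43014, which was 24.9% (24.7 to 25.1). The other 80041 loci, 46.3% (46.1 to 46.5), were held by both. Among the loci of 1 tissue, 53.7% (53.4 to 54.0) were whole seed only, and the share was above 50% on 20 of 20 chromosomes. It was highest on 7B, at 58.4% (57.0 to 59.8), and lowest on 7A, at 50.5% (49.1 to 51.9), so the extremes were homoeologues of each other, the related chromosomes of 2 subgenomes.

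**Figure D1:**
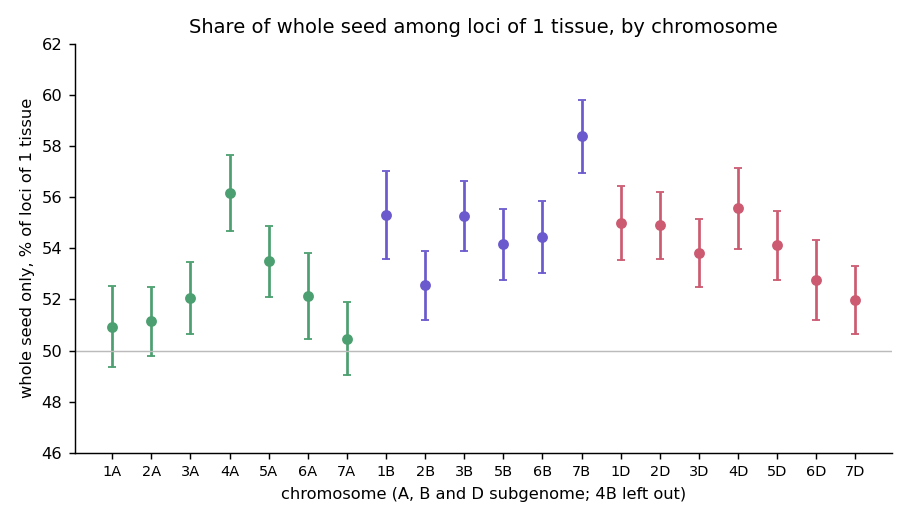
The vertical axis is the share of whole seed only loci among the loci held by 1 tissue (%), by chromosome, and the bars are Wilson 95% intervals that cover counting error only. All 20 chromosomes lie above the line at 50%, with 7B highest (58.4%) and 7A lowest (50.5%).

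Loci of 1 tissue were narrow, and more so in whole seed. Their mean width was 451 bp in whole seed only loci and 582 bp in endosperm only loci, against 1102 bp in the loci of both tissues. Of the whole seed only loci 42.0% were exactly 350 bp wide and 16.5% were narrower. Of the endosperm only loci 33.8% were exactly 350 bp wide and 3.79% were narrower. Loci at least 1000 bp wide made up 2.28% of the whole seed only loci (1137), 8.38% of the endosperm only loci (3605) and 41.4% of the loci of both. Widths of 350 bp or less were thus more frequent among whole seed only loci, and wide loci among endosperm only loci. Every whole seed only locus under 350 bp was held by DAP20 alone, where such loci were 37.1%. The loci of DAP15 alone had a mean width of 446 bp and those of DAP20 alone 397 bp, against 479 bp for DAP5 alone and 457 bp for DAP9 alone. The tissues differed more in the loci held by both lists, with a mean of 609 bp in whole seed and 803 bp in endosperm.

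The excess of whole seed only loci was carried by loci that a single list held. Of the whole seed only loci, 8096 (16.2%) were held by both whole seed lists, 19618 (39.3%) by DAP15 alone and 22176 (44.5%) by DAP20 alone. Of the endosperm only loci, 14288 (33.2%) were held by both endosperm lists, 18873 (43.9%) by DAP5 alone and 9853 (22.9%) by DAP9 alone. Among the loci that both lists of their tissue held, the direction was turned: 36.2% were whole seed only, and endosperm had more of them on 20 of 20 chromosomes. With only those loci counted that, in each tissue, both lists or neither list held, 65.02% were held by both tissues, 41613 in number. Loci that a single list of either tissue held were left out of this count. Among them were 15684 loci of both endosperm lists and 1 whole seed list. Another 9515 were of both whole seed lists and 1 endosperm list. The 65.02% is therefore not on the same terms as the 46.3% of all loci.

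**Figure D2:**
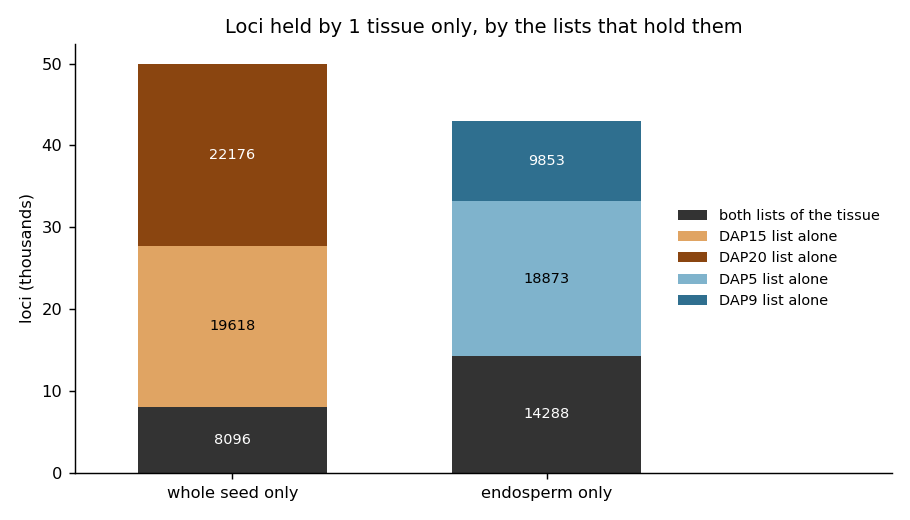
Bars show the number of loci, in units of 1000, held by whole seed only (left) and by endosperm only (right), stacked by whether the earlier list alone, the later list alone or both lists of the tissue held them. The whole seed bar is higher in all (49890 against 43014), and its part held by both lists is smaller (8096 against 14288).

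The 2 whole seed lists shared fewer loci with each other than the 2 endosperm lists did. In the whole seed union 60308 ACRs (44.0%, 43.7 to 44.3) were in both lists, and in the endosperm union 72087 (57.7%, 57.4 to 58.0). The comparisons of 1 whole seed list with 1 endosperm list gave shares of 41.3% (DAP15 and DAP5), 47.4% (DAP15 and DAP9), 37.9% (DAP20 and DAP5) and 41.5% (DAP20 and DAP9). The share within whole seed therefore lay inside the range of those between tissues, and DAP15 shared more loci with DAP9 endosperm than with DAP20 seed. The share within endosperm lay above them all. In these pairs of single lists, the share of whole seed only loci among the loci of 1 list was 47.3%, 51.0%, 45.6% and 48.9% in the same order. It was above 50% on 4, 10, 2 and 4 of the 20 chromosomes. The excess of whole seed only loci in the unions was thus seen in 1 of the 4 pairs of single lists, DAP15 against DAP9, and there on 10 chromosomes.

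A locus was the more often held by the other tissue, the more lists of its own tissue held it. Of the loci in both whole seed lists 86.3% were also held by endosperm, and of the loci in both endosperm lists 80.04% were also held by whole seed. Among loci of a single whole seed list, 46.5% of those of DAP15 and 34.8% of those of DAP20 were also held by endosperm. Among loci of a single endosperm list, 34.1% of those of DAP5 and 56.8% of those of DAP9 were also held by whole seed. The stages nearest in time across the change of tissue, DAP15 and DAP9, thus had the higher values in their tissues.

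The widest loci that both lists of 1 tissue held and the other tissue lacked give the scale of these differences. In whole seed they lay at chr7D:625666514-625671063 (4550 bp, with ACRs of 850 bp at DAP15 and 4550 bp at DAP20), at chr6B:52388422-52392671 (4250 bp, with 4250 and 3059 bp) and at chr6B:20142285-20145641 (3357 bp, with 3357 and 2504 bp). In endosperm they lay at chr1B:533322494-533327415 (4922 bp, with ACRs of 4806 bp at DAP5 and 4350 bp at DAP9), at chr3D:522195103-522199352 (4250 bp, with 4250 and 2500 bp) and at chr6A:109133847-109138096 (4250 bp, with 4250 and 2550 bp). What these loci contain was not read, for want of an annotation of this build. Coordinates were taken from the deposited lists and are counted from 1.

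Along the chromosomes both unions followed the same course, dense at the ends and sparse in the middle. The outer 20% of the length at either end held 61.9% of the whole seed ACRs and 61.0% of the endosperm ACRs. Whole seed only loci lay at the ends in 63.0% of cases (62.6 to 63.4) and endosperm only loci in 61.1% (60.6 to 61.6), a difference of 1.90 percentage points (1.28 to 2.53), positive on 14 of 20 chromosomes. The difference was most positive on 5A (7.76 points) and most negative on 6D (-4.15 points). Its sign changed between chromosomes, and it was small beside the differences between lists of 1 tissue.

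Within each tissue, the loci of the 2 lists lay at different places. At the ends lay 53.4% of the loci of DAP15 alone and 71.3% of those of DAP20 alone, and DAP20 was higher on 20 of 20 chromosomes. At the ends lay 65.6% of the loci of DAP5 alone and 56.5% of those of DAP9 alone, and DAP5 was higher on 19 of 20 chromosomes. The earliest and the latest list thus reached furthest to the ends, and the 2 middle ones lay further in. The last 5% of the chromosome length held 18.5% of the loci of DAP5 alone, 8.78% of DAP9 alone, 9.71% of DAP15 alone and 16.9% of DAP20 alone. DAP5 and DAP20 were also the lists with the most widths off the 150 bp steps. The loci of DAP20 alone lay at the ends in 71.4% of cases with widths on the steps and in 71.1% with widths off them, and those of DAP5 alone in 65.5% and 66.1%. In the last 5% of the length, the loci of DAP20 alone differed more, with 18% of those on the steps and 15.8% of those off them, and those of DAP5 alone with 18.6% and 17.9%. The part of the width steps in these positions was not tested.

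The difference between the tissues at the ends therefore depended on the lists chosen. Loci of 1 list were less often at the ends in DAP15 than in DAP5, by -6.51 points, and than in DAP9, by -1.83 points. They were more often at the ends in DAP20 than in DAP5, by 7.23 points, and than in DAP9, by 12.8 points. The difference between DAP20 and DAP15, both whole seed, was larger still, at 15.1 points. Among loci held by both lists of their tissue, whole seed only loci were at the ends in 63.7% of cases and endosperm only loci in 58.4%, and whole seed was higher on 17 of 20 chromosomes.

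**Figure D3:**
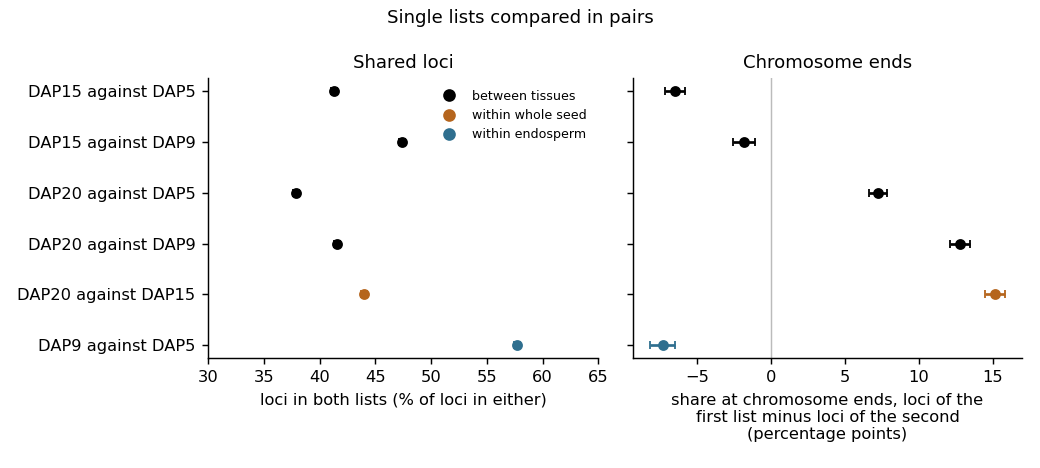
Each row compares 2 single lists. The left axis gives the loci in both lists (% of loci in either), the right axis the share at chromosome ends among loci of the first list minus that among loci of the second (percentage points), and bars are 95% intervals (Wilson on the left, Newcombe on the right): the 2 whole seed lists differ by 15.1 points and share 44.0%, inside the 37.9% to 47.4% found between tissues.

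In finer steps, the balance between the tissues changed along the chromosome. With the length of every chromosome cut into 20 bins, the whole seed only share among the loci of 1 tissue was highest at 35 to 40% of the length (57.8%, 55.8 to 59.8) and at 85 to 90% (57.7%, 56.5 to 58.8). It was lowest at 70 to 75% (48.6%, 47.0 to 50.1) and at 55 to 60% (49.1%, 47.1 to 51.0). Among loci held by both lists of their tissue the share was lowest in the same bin at 70 to 75% (28.2%) and highest at 40 to 45% (43.2%). The stretch from 55 to 75% of the length, in the inner part of what is mostly the long arm, leaned to endosperm relative to the rest of the chromosome in these 2 counts, with shares of 49.6% there and 54.4% elsewhere in the unions, and 29.0% and 37.6% for loci of both lists.

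Single lists did not all show this lean. The whole seed only share in the stretch was 47.9% for DAP15 against DAP9 (51.6% elsewhere), 39.0% for DAP20 against DAP5 (46.7% elsewhere) and 35.2% for DAP20 against DAP9 (51.3% elsewhere). For DAP15 against DAP5 the lean was turned, with 51.1% (50.2 to 52.0) in the stretch and 46.7% (46.3 to 47.0) elsewhere. Lists of 1 tissue differed there as well: the share of DAP20 among the loci of DAP20 or DAP15 only was 35.2% in the stretch and 49.1% elsewhere, and that of DAP9 among the loci of DAP9 or DAP5 only was 54.9% and 42.6%. The lean of the stretch thus depended on the lists compared.

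**Figure D4:**
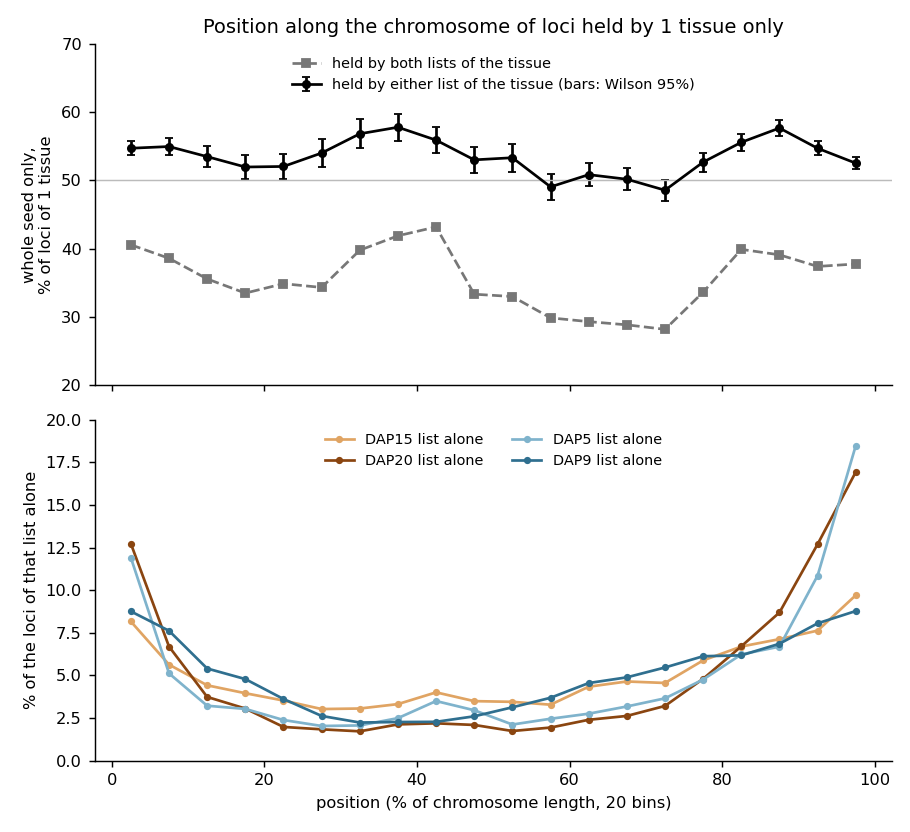
The horizontal axis is the position along the chromosome (% of length, 20 bins, 20 chromosomes joined). The upper plot gives the whole seed only share among loci of 1 tissue (%), for loci of either list (points with Wilson 95% bars, 48.6% to 57.8%) and of both lists (squares, 28.2% to 43.2%), and the lower plot gives the share of each single list's loci in each bin (%), where DAP5 and DAP20 are high in the last bin.

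Windows of 10 Mb were counted by whether the lists of the tissues separated. Of 1349 windows, 69 with fewer than 50 ACRs over the unions were set aside. In 219 of the remaining 1280 windows (17.1%) both whole seed lists had more ACRs than both endosperm lists, and in 247 (19.3%) both endosperm lists had more than both whole seed lists. Among the 259 windows at 55 to 75% of the length these numbers were 14 (5.41%) and 82 (31.7%). In the 525 windows at the ends they were 107 (20.4%) and 74 (14.1%). Whole seed was also ahead in the 427 windows at 20 to 55% of the length, with 90 (21.08%) against 75 (17.56%). In the 204 windows at 75 to 90%, which partly belong to the ends, there were 56 (27.45%) against 36 (17.65%). Endosperm was thus ahead by this count in the stretch, and the lead of whole seed was not particular to the ends. Lists in an arbitrary order would separate in this way in some windows as well. That share was not worked out, so the 17.1% and 19.3% of all windows do not by themselves show a separation by tissue. For the parts of the chromosome, being ahead means the larger count only, and these leads were not tested. The stretch was chosen after its values were seen, and the windows within it are neighbours and not independent.

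Single windows with a large difference were few and mostly poor in ACRs. Whole seed had at least 1.5-fold more ACRs in 32 windows (2.5%) and at least 1.5-fold fewer in 2 (0.156%). These ratios were not corrected for the larger whole seed union. The median log2 ratio of all 1280 windows was 0.13, with more whole seed ACRs in 938 and fewer in 321. The 32 against 2 windows therefore include this general offset. The median number of ACRs in the 32 windows was 75, against 154 in all 1280, both unions summed. Both whole seed lists were above both endosperm lists in 27 of the 32, and 27 lay in the inner part of a chromosome. The windows were picked by the unions of these same lists, so the order of the lists in them is no separate support.

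The windows with the most positive ratios lay on 7B and 6A. At chr7B:400000001-410000000, whole seed had 37 ACRs and endosperm 20 (log2 ratio 0.89), where the lists had 15 (DAP5), 18 (DAP9), 29 (DAP15) and 24 (DAP20). At chr7B:330000001-340000000 there were 39 and 22 (0.83), and at chr6A:400000001-410000000 there were 48 and 28 (0.78). In the 6A window, the DAP20 list (25) was level with the endosperm lists (26 at DAP5 and 25 at DAP9), and DAP15 (40) carried the difference.

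The windows with the most negative ratios lay on 5B, 1A and 7D. At chr5B:510000001-520000000, whole seed had 18 ACRs and endosperm 34 (-0.92), where the lists had 24 (DAP5), 24 (DAP9), 9 (DAP15) and 13 (DAP20). At chr1A:380000001-390000000 there were 52 and 78 (-0.58), and at chr7D:460000001-470000000 there were 59 and 86 (-0.54). In all 3 windows both endosperm lists were above both whole seed lists, which the choice of the windows by the same lists favours.

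The terminal 10 Mb of homoeologous groups 1 and 6 were looked at because the gliadin genes, which encode storage proteins, lie on the short arms of these chromosomes. The positions of these genes were not read, so it is unknown whether they lie within the terminal 10 Mb. The counts concern the whole terminal stretch. Whole seed only loci numbered 69 and endosperm only loci 58 at the start of 1A, and 100 and 72 at the start of 1D. They numbered 83 and 62 at the start of 6A, 67 and 54 at the start of 6B, and 153 and 130 at the start of 6D. In the unions, whole seed was thus ahead at each of these 5 starts, with shares between 54.1% and 58.1%. These were near the 54.6% of the start 10 Mb of all 20 chromosomes. Only the interval of 1D (50.7 to 65.3) excluded an even split. Those of 1A (45.7 to 62.7), 6A (49.1 to 65), 6B (46.5 to 63.9) and 6D (48.2 to 59.8) included it. Both whole seed lists had more ACRs than both endosperm lists at 1D alone. The longest single list was DAP15 at 1A (124 ACRs), but DAP5 endosperm at 6A (157) and 6D (319). At 6B, DAP5 and DAP20 were level (121 each). At the start of 1B there was 1 locus of both tissues, 1 of endosperm only and none of whole seed only. AK58 is known to carry a rye arm in place of the short arm of 1B, and its part in this low number was not tested. At the far ends of these 6 chromosomes, 1D had the highest whole seed only share, with 188 loci against 116 (61.8%, 56.3 to 67.1), and 6D the lowest, with 100 against 117 (46.1%, 39.6 to 52.7).

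The subgenomes were represented almost alike in both tissues. The A, B and D subgenomes held 34.0%, 29.9% and 36.2% of the whole seed ACRs, and 34.6%, 29.5% and 35.9% of the endosperm ACRs, at 36.8%, 33.7% and 29.5% of the length without 4B. The D subgenome, the smallest, was the most densely filled in both tissues. It had 12.6 ± 0.856 whole seed ACRs and 11.4 ± 0.749 endosperm ACRs per Mb (SD over 7 chromosomes). The A subgenome had 9.42 ± 0.786 and 8.76 ± 0.764 per Mb (7 chromosomes), and the B subgenome 9.08 ± 1.15 and 8.17 ± 1.13 per Mb (6 chromosomes). The B means include 1B, the lowest of the 20 chromosomes in both tissues, at 6.98 and 6.22 per Mb. They therefore do not rank B below A apart from 1B. On each of the 20 chromosomes the density was higher in whole seed, by ratios between 1.04 on 7A and 1.16 on 7B.

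Among loci of 1 tissue, the A subgenome had the smallest whole seed only share. Whole seed only loci made up 52.3% of these loci in A, 54.9% in B and 54.0% in D. The low place of A was repeated in the 6 homoeologous groups with all 3 chromosomes: A was below D in 6 and below B in 6, while B was below D in 1. It was not repeated in group 4, which lacked 4B here: 4A had 56.2% (54.7 to 57.7) and 4D 55.6% (54.0 to 57.1). In the same 6 groups, single pairs of lists kept the low place of A in part, with A below D in 4, 4, 5 and 4 groups and below B in 5, 6, 4 and 6 groups. Among loci held by both lists of their tissue the shares were 34.98% in A, 38.7% in B and 35.3% in D, with A below D in 4 groups and below B in 5. The share of D among whole seed only loci (36.4%) exceeded that among endosperm only loci (36.0%) by 0.39 points, and its interval included 0 (-0.23 to 1.01).

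ACRs followed each other more closely in the whole seed union, which held more of them. The median gap to the next ACR on the chromosome was 9.71 kb in whole seed (quartiles 1.83 and 96.1 kb) and 11.7 kb in endosperm (2.099 and 107 kb), a ratio of 0.83. It was smaller in whole seed on 20 of 20 chromosomes, with ratios between 0.685 on 7B and 0.933 on 7D. At the chromosome ends the medians were 7.13 kb in whole seed and 8.24 kb in endosperm, and in the inner part 21.7 and 26.6 kb. Gaps under 1 kb made up 18.1% of the whole seed gaps and 16.2% of the endosperm gaps, and gaps above 1 Mb numbered 1248 and 1468.

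The single lists did not order by tissue in spacing. Their median gap was 14.5 kb in the DAP5 list, 20.8 kb in DAP9, 15.8 kb in DAP15 and 19.4 kb in DAP20, so that DAP5 was the closest set and DAP9 the widest set. Both whole seed lists were more closely spaced than DAP9 endosperm and neither was more closely spaced than DAP5 endosperm. Joining also made gaps under 150 bp, which no single list had: 1.32% of the gaps in whole seed and 0.805% in endosperm.

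**Figure D5:**
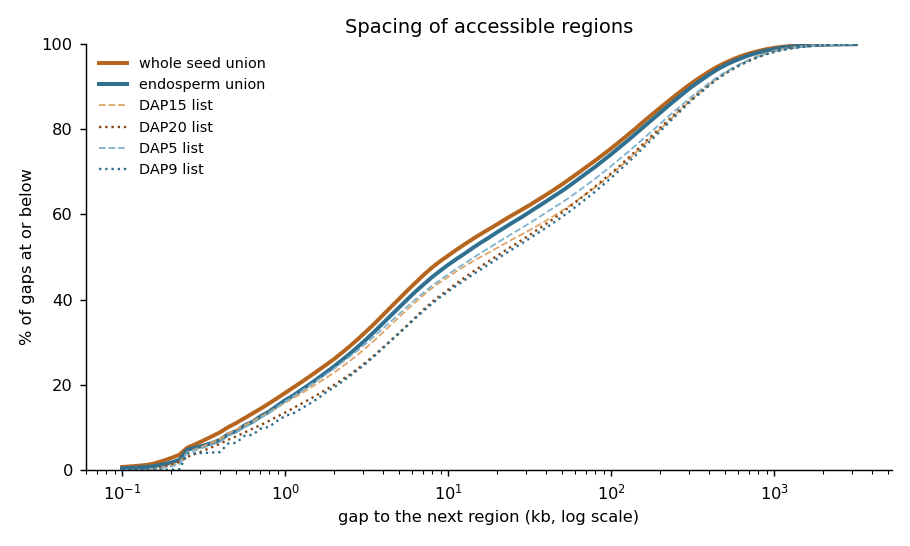
Curves give the share of gaps (%) at or below the gap length on the horizontal axis (kb, log scale), for the whole seed and endosperm unions and for the 4 single lists. The whole seed union lies above the endosperm union at the median (9.71 against 11.7 kb), and the single lists do not separate by tissue.

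The widest gap of either union lay on the same stretch of 1B. In whole seed it spanned chr1B:146203381-177840828 (31.6 Mb), and 1 endosperm ACR lay inside it. In endosperm it spanned chr1B:146203404-202004993 (55.8 Mb), and 3 whole seed ACRs lay inside it. Both gaps began at the same locus and lay between 21.2% and 29.3% of the length of 1B, within the first 35% of the chromosome, where the unions held only 29 of 4817 whole seed ACRs and 28 of 4293 endosperm ACRs of 1B. The rye arm named above stands in for the short arm in AK58, and its part in these gaps was not tested.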

How the data were processed

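ATAC-seq of 4 stages was recorded in 8 sample records, and groups were taken from the labels. Per the study's methods, reads were trimmed with fastp, whereas the submitters' processing notes name Trimmomatic 0.36 beside Bowtie2, MACS2 and bedtools. Called peaks were divided into bins, bins rich in Tn5 insertions were merged, and peaks on a blacklist or like organelle DNA were dropped. The density threshold, the genome build and any pooling of replicates were not given in the sources used here. The deposited values are coordinates in bp, as the authors listed them (chromosome, start, end), 1 list per stage, with no score. Sequencing depth is unknown. ACR numbers and widths can therefore carry effects of depth, threshold and bin size as well as of tissue.

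Lists were joined as described, with Python 3.11.15, numpy 2.4.6, scipy 1.17.1 and matplotlib 3.10.9. Ends were the outer 20% of the length, position used 20 bins, and the merging and counting were tested on simulated data. Regions named were fixed by rule: the 3 windows of either sign with the largest ratio, the 3 widest loci per tissue, the longest runs and gaps, chromosomes with extreme values, and the terminal 10 Mb of groups 1 and 6. The members, lists and rules were chosen with earlier results of these data known. Chosen after seeing values were the stretch from 55 to 75% of the length, the count of windows in which the lists separated, and the splits of positions and widths by width step or single list.

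Alternatives were single lists in pairs, loci of both lists, a minimum width of 350 bp, the 50000 widest ACRs of each list, 350 bp around the midpoint, merging within 500 bp, a reciprocal overlap of 50%, ends of 10% or 30%, and 4B kept. Genes, promoters, motifs and sequences were not analysed here, since no genome of this build was used, and a gene table of another assembly was set aside.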

Additional observations from a re-analysis of the deposited data

Results flagged for a closer look

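Chromosome 4B was outside the comparison, and its loci also leaned to whole seed. There were 2334 loci of whole seed only, 1944 of endosperm only and 3238 of both tissues on it, so that 54.6% (Wilson 95% interval 53.1 to 56.1) of the loci of 1 tissue were whole seed only. On 4B the DAP5 list held 4308 ACRs, DAP9 4213, DAP15 3450 and DAP20 4339, so the DAP15 list was the short one there. Covered bases on 4B came to 3.85 Mb in whole seed and 4.40 Mb in endosperm.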

How the results depend on the processing

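No paired analysis was possible because the replicates of a stage came without lists of their own, which also meant that none could be left out. The ratio of covered bases was below 1 in every alternative except ACRs of 350 bp around the midpoint (1.07), where equal widths tie it to the numbers of ACRs. The whole seed only share of the loci of 1 tissue turned below 50% for DAP15 against DAP5 (47.3%), DAP20 against DAP5 (45.6%), DAP20 against DAP9 (48.9%), loci of both lists (36.2%), a minimum width of 350 bp (49.2%) and widths on the 150 bp steps, an alternative chosen after seeing the data (47.2%). It was 51.0% for DAP15 against DAP9, 54.5% for the 50000 widest ACRs, 54.5% around the midpoint and 54.3% with reciprocal overlap. The share of loci in both tissues was 41.3%, 47.4%, 37.9% and 41.5% in the pairs DAP15 and DAP5, DAP15 and DAP9, DAP20 and DAP5, DAP20 and DAP9. It was 65.02% for loci of both lists, 46.8% with the minimum width, 42.6% for the widest ACRs, 40.9% around the midpoint, 50.3% with merging within 500 bp, 30.2% with reciprocal overlap and 45.1% on the steps. The difference at the ends was -6.51, -1.83, 7.23 and 12.8 points in the pairs in that order. It was 5.32 points for loci of both lists, 0.59 with the minimum width, 0.50 for the outer 10%, 0.64 for the outer 30% and 0.0031 on the steps. The difference in the D share turned to -1.48 points for DAP15 against DAP9, -0.69 for DAP20 against DAP9, -1.39 for loci of both lists and -2.78 for the widest ACRs. The ratio of median gaps turned to 1.09 for DAP15 against DAP5, 1.34 for DAP20 against DAP5 and 1.64 for loci of both lists. The cause of these changes was not tested. Leaving out narrow ACRs or those off the steps removes mostly DAP20 ACRs. A locus missing from a list may fall just under an unknown density threshold, and the unknown depth limits every count of loci held by 1 tissue.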

Other observations

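Loci of 1 tissue followed others of the same tissue along the chromosome more often than their share of all loci. A whole seed only locus was followed by another in 33.4% of cases (33.0 to 33.9), where such loci were 28.8% of all, and by an endosperm only locus in 21.0%. An endosperm only locus was followed by another in 32.8% (32.4 to 33.3), where such loci were 24.9% of all, and by a whole seed only locus in 24.1%. The loci of both tissues stood at about the same distance from either kind: the nearest lay at a median of 8.38 kb from whole seed only loci and 8.24 kb from endosperm only loci. By list, that distance was 7.42 kb for loci of DAP5 alone, 10.6 kb for DAP9 alone, 5.50 kb for DAP15 alone and 12.1 kb for DAP20 alone.

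Runs of at least 5 successive loci of 1 tissue numbered 532 for whole seed and 478 for endosperm. They held 2993 whole seed only loci (5.999%) and 2748 endosperm only loci (6.39%), of which 71.2% and 65.1% lay in the outer 20% of the chromosomes. Of all loci of these 2 classes, 63.0% and 61.1% lay there. DAP20 alone held 49.65% of the whole seed loci in runs (44.5% of all whole seed only loci). DAP5 alone held 46.8% of the endosperm loci in runs (43.9% of all endosperm only loci). The longest whole seed runs had 13 loci. The run at chr5B:207594723-207700128 held 12 ACRs of DAP15 and 1 of DAP20, and that at chr7A:721108124-721471717 held 5 and 11. The longest endosperm runs had 14 loci, at chr2B:769080152-769491708 (9 ACRs of DAP5 and 8 of DAP9), chr6A:572146243-572336181 (14 and 2) and chr7D:33994043-34086254 (14 and 2). Apart from the runs on 7A and 2B, each came mainly from a single list.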
